A study of Mus musculus with 13 samples.

Results

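The genes of cholesterol synthesis, sterol sensing and cholesterol efflux were followed in mouse epididymal fat. The set had 29 listed genes, and a gene was taken as measured when a probe set was annotated to its symbol alone (the older symbol Sc4mol counted as Msmo1). This found 27 of the 29 genes among 18818 genes tested: 17 enzymes of synthesis, 5 genes of sterol sensing and control, and 5 genes of efflux, oxysterol formation and lysosomal export. Acat2, an enzyme at the entry of the mevalonate pathway, and Soat1, which esterifies cholesterol for storage, have no entry in the probe annotation used here.

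The samples were epididymal white fat of male mice of 6.5 weeks, measured on 13 Affymetrix gene arrays. The 4 groups were wild type mice given vehicle (3 arrays), wild type mice given αGalCer (4 arrays), CD1d knockout mice given vehicle (3 arrays) and CD1d knockout mice given αGalCer (3 arrays). αGalCer (α-galactosylceramide) is a glycolipid that activates natural killer T cells when CD1d presents it, and mice without CD1d lack these cells. Every mouse, controls included, ate a high-fat diet for 4 days from 6 weeks of age. Each was injected into the peritoneum on days 0 and 2, with αGalCer at 100 ng per g or with pyridine as the vehicle, and was killed on day 4. Wild type mice were C57Bl/6J by their labels, and the knockout strain was B6.129S6-Cd1d1/Cd1d2tm1spb/J, which lacks CD1d in all cells. Both strains were bought and then bred in one facility, and the labels do not say whether mice of different genotype were littermates. Arrays of a group are labelled as replicates, with nothing on how mice were divided between them, so every p-value here measures only the spread among these arrays, part of which may be technical.

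Cells make cholesterol from acetyl-CoA in a mevalonate arm, which ends in farnesyl diphosphate, and a sterol arm, which closes the rings and trims lanosterol to cholesterol. When sterol in the endoplasmic reticulum is ample, INSIG proteins hold SCAP and the transcription factor SREBP2 there; when it is scarce, SREBP2 is released and switches on the genes of the enzymes and of INSIG1. Excess cholesterol leaves through the transporters ABCA1 and ABCG1 to apolipoproteins such as apoE, whose genes are targets of the oxysterol-activated receptors LXR. Fat cells hold a large pool of unesterified cholesterol in their lipid droplets, and macrophages take up cholesterol from dying cells.

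The targeted gene, Cd1d1, separated the genotypes. In wild type fat its log2 expression was 10.69 ± 0.15 (SD, n = 3) with vehicle and 9.63 ± 0.40 (SD, n = 4) with αGalCer, against 3.73 ± 0.29 and 3.14 ± 0.47 (SD, n = 3 each) in the knockout. Markers of adipocytes were near the top of the scale in every vehicle array, and their mean over the 7 measured genes was 11.92 to 12.14 in the 6 arrays. Single arrays stood apart for tissue that dissection can add. The mean of 5 epididymal duct markers was 7.18 in replicate 3 of the wild type vehicle group and 3.64 to 4.05 in the other 12 arrays. The mean of 6 skeletal muscle markers reached 9.55 in replicate 3 of the knockout αGalCer group, 9.51 and 7.34 in replicates 1 and 2 of the knockout vehicle group, and 4.94 to 6.16 in the rest. Counts of called genes are therefore also given without the 3 arrays highest in either list (wild type vehicle 3, knockout vehicle 1, knockout αGalCer 3). This setting may still hold such tissue, since it keeps knockout vehicle 2. It also keeps wild type vehicle 1, which was close to replicate 3 in markers of ciliated and ductal epithelium (7.28 and 7.36).

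In wild type fat, αGalCer moved most of the cholesterol genes, and mostly downward for synthesis. Of the 27 genes, 14 fell and 6 rose, and the median change was -0.40 on the log2 scale. Sc5d, Nsdhl, Apoe, Abca1, Insig1 and Fdft1 fell between 2.07-fold and 2.71-fold, and Ch25h rose 20.4-fold. The threshold was an adjusted p under 0.05 in limma's moderated test over all genes (Benjamini-Hochberg). This injection changed much of the transcriptome: 41.9% of all genes tested passed the same threshold, 19.8% higher and 22% lower, around a median change of -0.02. The arrays of the 2 wild type groups did not overlap for 20 of the 27 genes, against 46.7% of all genes. The number called was 21 of 27 without the 3 arrays that stood apart, where Idi1 and Scap gained a call and Tm7sf2 lost its own. Over all genes it was 7646 in that setting and 7881 with every array.

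**Figure D1:**
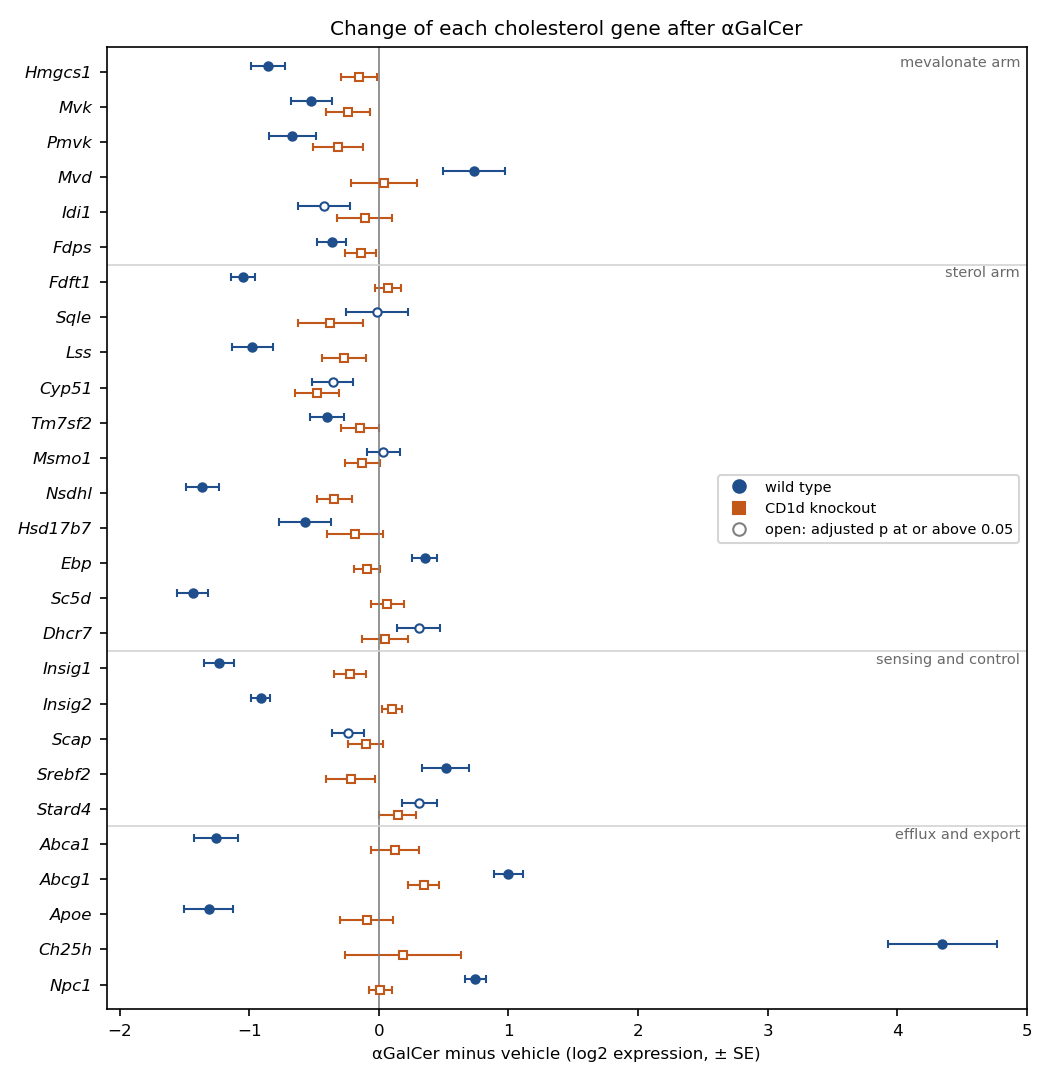
Change of log2 expression (αGalCer minus vehicle, ± SE) of the 27 measured cholesterol genes in wild type (blue circles, 4 against 3 arrays) and CD1d knockout fat (orange squares, 3 against 3 arrays); filled symbols passed an adjusted p under 0.05. Wild type changes run from -1.44 (Sc5d) to 4.35 (Ch25h), while all knockout symbols are open and lie between -0.48 and 0.35.

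Beside these values stands a change in the markers of the cells in the tissue. All 7 measured adipocyte markers fell (median -1.28), and their mean was 9.98 to 10.84 in the 4 wild type αGalCer arrays, lowest in replicate 2. Of 9 macrophage markers 8 rose (median 1.82), from a mean of 8.65 to 9.44 after vehicle to 10.79 to 11.09 after αGalCer. Markers of lipid-laden macrophages were mixed: of 6 measured, 3 rose, 1 fell (Fabp5, -0.52 ± 0.14) and the rest did not pass (median 0.96). All 8 markers of T and cytotoxic lymphocytes and all 7 of dividing cells rose, and all 6 endothelial and 5 of 6 fibroblast markers fell. None of these lists had a called gene in the knockout. In bulk tissue, fewer cells of a type and less RNA per cell cannot be told apart, and the part of this shift in the cholesterol genes was not tested. Of 4 measured markers of steroid-making cells, another site of heavy cholesterol use, 1 rose in wild type (Star, 0.97 ± 0.29), and the mean of the 4 was 4.42 to 5.32 across the 13 arrays. Among 6 markers of ciliated and ductal epithelium 4 fell (median -1.23), and all 5 measured hepatocyte markers fell (median -1.43). In the knockout the medians of these 2 lists were also negative after αGalCer, -1.59 and -0.72, with no gene called.

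**Figure D2:**
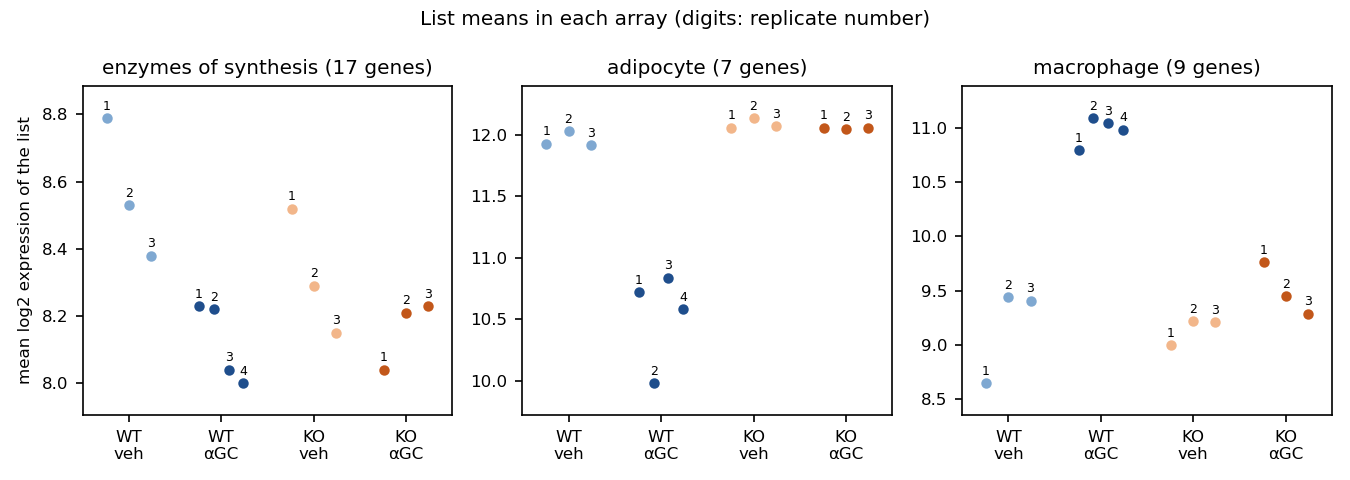
Mean log2 expression per array of the 17 synthesis enzymes, the 7 measured adipocyte markers and the 9 macrophage markers; each point is 1 array, labelled with its replicate number, in the 4 groups (WT wild type, KO CD1d knockout, veh vehicle, αGC αGalCer). Adipocyte markers are lowest (9.98 to 10.84) and macrophage markers highest (10.79 to 11.09) in the 4 wild type αGalCer arrays, while the enzyme mean of these arrays (8.00 to 8.23) overlaps that of the knockout arrays (8.04 to 8.52).

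In the mevalonate arm 4 of the 6 measured genes fell, 1 rose and 1 did not pass the test. Of all genes, 22% fell and 19.8% rose. Hmgcs1, the cytosolic synthase that makes HMG-CoA, was 9.76, 9.48 and 9.07 in the 3 wild type vehicle arrays (in order of replicate number, as throughout) and 8.52, 8.75, 8.56 and 8.50 after αGalCer. All 4 arrays after αGalCer lay below all 3 vehicle arrays, and the change was -0.85 ± 0.13 (SE, adjusted p = 0.000146). The kinases Mvk and Pmvk, which phosphorylate mevalonate in turn, changed by -0.52 ± 0.16 (adjusted p = 0.0172) and -0.67 ± 0.18 (adjusted p = 0.010). Both calls needed wild type vehicle replicate 1, the highest array for each, and without it the adjusted p was 0.0947 for Mvk and 0.0576 for Pmvk.

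Mvd, the decarboxylase that makes isopentenyl diphosphate, went the other way. Its values were 6.54, 6.02 and 5.82 after vehicle and 7.18, 7.0, 6.58 and 6.69 after αGalCer, a change of 0.74 ± 0.24 (adjusted p = 0.0243). The groups met without overlapping, since the lowest αGalCer array lay 0.04 above the highest vehicle array. The call was lost when wild type vehicle replicate 2 or 3 or αGalCer replicate 1 or 2 was left out (adjusted p = 0.0585 to 0.113). Fdps, the synthase of farnesyl diphosphate, changed by -0.37 ± 0.11 (adjusted p = 0.0167), from 8.95 ± 0.07 (SD, n = 3) to 8.58 ± 0.17 (SD, n = 4). Leaving out wild type vehicle replicate 1 or 2 or αGalCer replicate 4 gave Fdps an adjusted p of 0.0501 to 0.0554. Idi1, the isomerase between them, had a change of -0.42 ± 0.20 (adjusted p = 0.109), and its second probe set gave -0.47 ± 0.17, also not called. Without the 3 arrays that stood apart Idi1 was called, at -0.57 (adjusted p = 0.0267).

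The sterol arm held the largest falls of the synthesis genes, and it was not uniform: 6 of its 11 genes fell, 1 rose and 4 did not pass. Beside this, 22% of all genes fell and 19.8% rose. Sc5d, the desaturase that acts near the end of the pathway, was 10.89, 10.67 and 10.29 in the vehicle arrays and 9.29, 9.01, 9.29 and 9.14 after αGalCer. Its change was -1.44 ± 0.12, or 2.71-fold lower (adjusted p = 1.03e-06), and the nearest arrays of the 2 groups were 1.00 apart. Nsdhl, a dehydrogenase of the demethylation steps, was 10.80, 10.82 and 10.58 after vehicle and 9.45, 9.40, 9.40 and 9.23 after αGalCer (-1.36 ± 0.13, 2.57-fold, adjusted p = 2.06e-06). Fdft1, squalene synthase, which commits farnesyl diphosphate to sterols, was 10.39, 10.21 and 10.48 and then 9.42, 9.26, 9.35 and 9.21 (-1.05 ± 0.09, 2.07-fold, adjusted p = 1.49e-06). In each of these genes the 4 arrays after αGalCer lay within 0.28 of each other and well below every vehicle array.

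Lss, the cyclase that forms lanosterol, fell by 0.98 ± 0.16 on the log2 scale (adjusted p = 0.000222), from 8.91, 8.63 and 8.33 to 7.83, 7.57, 7.47 and 7.70. Tm7sf2, a sterol reductase, changed by -0.40 ± 0.13 (adjusted p = 0.0288) and Hsd17b7, a ketosteroid reductase, by -0.57 ± 0.20 (adjusted p = 0.0387). These calls were the least firm of the set, as the arrays of the 2 groups overlapped for both genes. Tm7sf2 missed the threshold without wild type vehicle replicate 2 or 3 or αGalCer replicate 1 or 4 (adjusted p = 0.0558 to 0.164), and its change was -0.25 (adjusted p = 0.136) without the 3 arrays that stood apart. Its vehicle replicate 3, the array highest in duct markers, was its highest vehicle value, 7.41 against 6.83 and 7.06. Hsd17b7 missed it without wild type vehicle replicate 1, αGalCer replicate 3 or 4 or knockout αGalCer replicate 2 (adjusted p = 0.0501 to 0.202), and its change was -0.33 without the first of these.

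The other genes of the arm either rose or did not pass the test. Ebp, the sterol isomerase, was 8.87, 8.89 and 8.80 after vehicle and 9.38, 9.19, 9.14 and 9.09 after αGalCer, and so rose by 0.35 ± 0.10 (adjusted p = 0.00883). Dhcr7, the last reductase of one branch, had a change of 0.31 ± 0.17 (95% interval -0.05 to 0.67, adjusted p = 0.169). Without wild type vehicle replicate 1 the change of Dhcr7 was 0.48 (adjusted p = 0.0396), and without replicate 3 it was 0.13. Sqle, squalene epoxidase, a rate-limiting oxygenase of the arm, had a change of -0.01 ± 0.24, and its interval of -0.53 to 0.50 leaves room for a change of either sign. Msmo1, the methylsterol oxidase, had a change of 0.03 ± 0.13 (-0.24 to 0.31). Cyp51, the lanosterol demethylase, had -0.36 ± 0.16 (adjusted p = 0.0954) in wild type and -0.48 ± 0.17 (adjusted p = 0.720) in knockout, the lowest knockout value of the set. The wild type change of Cyp51 was -0.45 (adjusted p = 0.0402) without αGalCer replicate 1 and -0.23 (adjusted p = 0.332) without vehicle replicate 1.

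**Figure D3:**
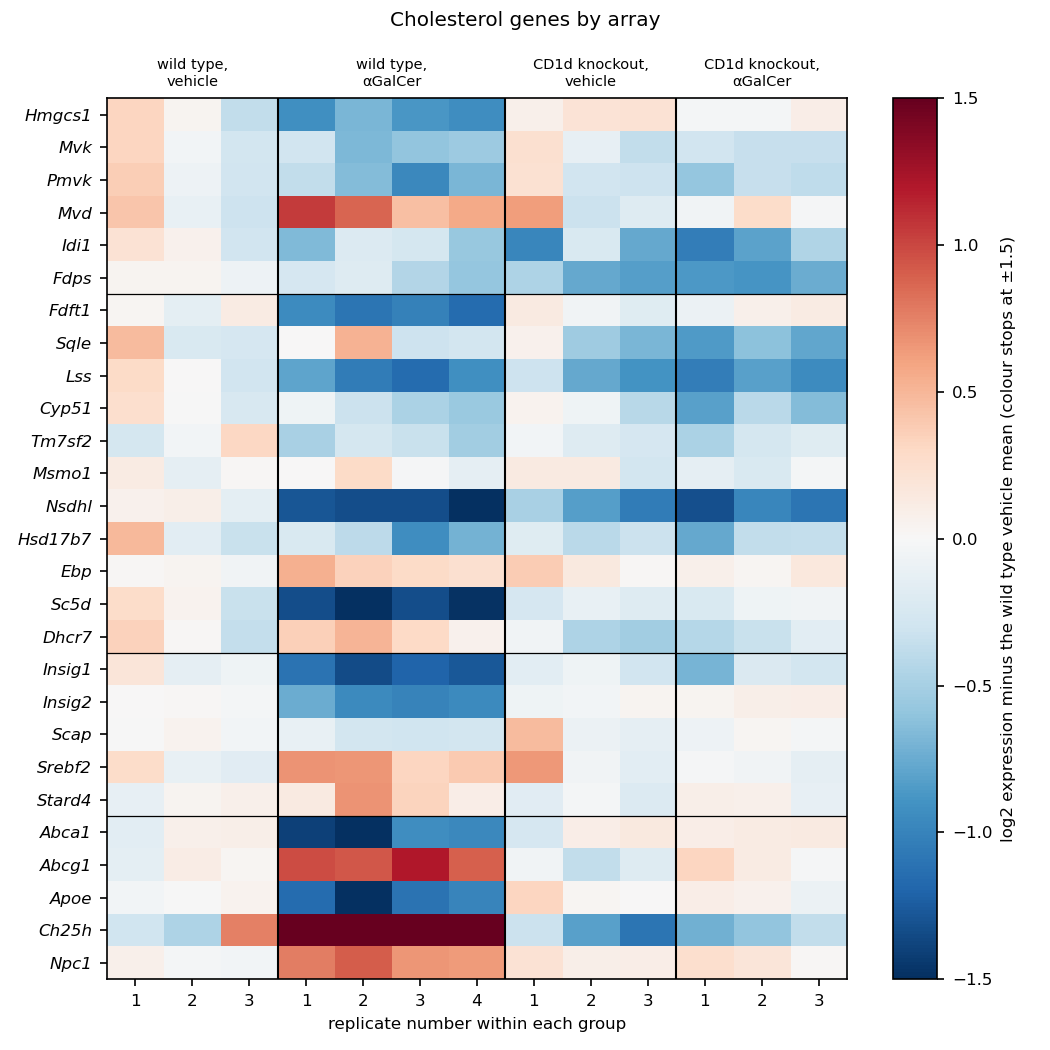
Log2 expression of each measured cholesterol gene (rows, grouped as mevalonate arm, sterol arm, control, and efflux and export) in each of the 13 arrays (columns, by group and replicate number), minus the mean of the 3 wild type vehicle arrays; blue is lower, red is higher and the colour stops at ±1.5. The wild type αGalCer columns are blue for Hmgcs1, Fdft1, Nsdhl, Sc5d, Insig1, Abca1 and Apoe and red for Mvd, Abcg1, Ch25h and Npc1, and the knockout columns are pale for many genes but mostly blue for Idi1, Fdps, Lss and Nsdhl.

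The enzymes whose promoters could be searched share a feature that their choice did not use. RefSeq promoter windows (mouse build GRCm38.p6, 250 bases before to 50 after the start site) were found for 21 of the 27 genes, 14 of them enzymes, and were searched on both strands for 3 motifs. The enzymes Fdps, Fdft1 and Sqle had no window. CCAAT, the box bound by NF-Y, which works together with SREBP at sterol genes, occurred in 14 of 14 enzyme promoters. It occurred in 41.1% of the 27025 genes with a window, measured here or not. GGGCGG, the Sp1 box, occurred in 13 of 14 against 38.2% of genes. TCACNCCAC, a sterol regulatory element, occurred in 1 of 14, that of Hmgcs1, and in 1.44% of genes. Only exact matches to this pattern were counted, so elements with other letters or outside the window would be missed. The base composition of these windows was not compared, and a match is not evidence of binding.

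The stretches below are printed because they hold these letters in called enzymes that fell (Sc5d, Nsdhl, Lss and Hmgcs1), in the enzymes that rose (Ebp and Mvd) and in control genes that went opposite ways (Insig1 and Srebf2). Each runs 5′ to 3′ on the gene's strand and ends before the start site. Capitals mark CCAAT, read as ATTGG where it lies on the opposite strand, and in Hmgcs1 also the sterol element TCACCCCAC, which begins 137 bases before the start. The marked boxes do not overlap each other.
Sc5d (chr9:42264301-42264344, minus strand): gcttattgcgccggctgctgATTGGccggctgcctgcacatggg
Nsdhl (chrX:72918392-72918520, plus strand): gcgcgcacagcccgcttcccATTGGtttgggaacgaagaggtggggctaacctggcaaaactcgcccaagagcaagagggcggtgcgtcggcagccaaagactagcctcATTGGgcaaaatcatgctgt
Lss (chr10:76531523-76531567, plus strand): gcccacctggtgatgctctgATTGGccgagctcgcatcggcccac
Hmgcs1 (chr13:119690101-119690330, plus strand): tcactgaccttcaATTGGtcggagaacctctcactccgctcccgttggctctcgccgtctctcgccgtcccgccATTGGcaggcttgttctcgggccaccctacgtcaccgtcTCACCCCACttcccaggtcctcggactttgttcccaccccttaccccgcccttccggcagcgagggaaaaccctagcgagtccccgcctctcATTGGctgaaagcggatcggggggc
Ebp (chrX:8193543-8193702, minus strand): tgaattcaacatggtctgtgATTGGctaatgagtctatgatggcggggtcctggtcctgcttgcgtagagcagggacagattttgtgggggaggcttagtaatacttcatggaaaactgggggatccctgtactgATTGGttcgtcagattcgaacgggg
Mvd (chr8:122443425-122443502, minus strand): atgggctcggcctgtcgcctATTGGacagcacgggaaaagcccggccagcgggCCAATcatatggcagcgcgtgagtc
Insig1 (chr5:28071176-28071220, plus strand): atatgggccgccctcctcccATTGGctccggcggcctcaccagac
Srebf2 (chr15:82147114-82147158, plus strand): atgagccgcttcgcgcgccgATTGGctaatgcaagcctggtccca

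The same box thus stood in promoters of enzymes that fell, of enzymes that rose and of enzymes that did not pass the test (Idi1, Cyp51, Msmo1 and Dhcr7). Among the 4 control genes with a window, Insig1, Insig2 and Srebf2 held it and Scap did not.

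The genes of sterol sensing moved apart from each other. Insig1, an SREBP target whose protein retains SCAP in the endoplasmic reticulum, was 11.16, 10.84 and 10.91 after vehicle and 9.87, 9.63, 9.77 and 9.70 after αGalCer. It fell by 1.23 ± 0.12 on the log2 scale, or 2.35-fold (adjusted p = 2.62e-06). Insig2, its paralogue, was 9.45, 9.46 and 9.42 and then 8.70, 8.49, 8.44 and 8.49 (-0.91 ± 0.07, adjusted p = 6.48e-07). For neither gene did the groups overlap, and the 3 vehicle arrays of Insig2 differed by only 0.04.

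Srebf2, which encodes SREBP2, had the opposite sign to the INSIG genes. Its 3 vehicle arrays were 9.03, 8.65 and 8.59 and its 4 αGalCer arrays 9.43, 9.42, 9.08 and 9.15, a rise of 0.51 ± 0.18 (adjusted p = 0.0340). The gap between the groups was 0.05, and the call was lost without wild type vehicle replicate 2 or 3 or αGalCer replicate 1 or 2 (adjusted p = 0.0796 to 0.129). Stard4, a sterol carrier, had a change of 0.31 ± 0.13 (adjusted p = 0.0858). Scap, the escort of SREBP, had -0.24 ± 0.12 (adjusted p = 0.146), and its dimmer second probe set had 0.10 ± 0.11. Leaving out knockout vehicle replicate 1, whose Scap value of 9.47 stood above all other arrays, gave Scap an adjusted p of 0.0107 for the same change in wild type, in the model whose spread is shared by all groups.

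All 5 measured genes of efflux and export changed in wild type fat, beside 41.9% of all genes. The 2 sterol transporters moved in opposite directions. Abca1, which loads cholesterol onto lipid-poor apolipoprotein, was 10.66, 10.90 and 10.91 after vehicle and 9.42, 9.08, 9.89 and 9.86 after αGalCer (-1.26 ± 0.17, 2.39-fold lower, adjusted p = 5.89e-05). Abcg1, which exports cholesterol to HDL and is abundant in macrophages, was 8.91, 9.17 and 9.08 and then 10.03, 9.98, 10.26 and 9.95 (1.00 ± 0.11, 2.00-fold higher, adjusted p = 9.62e-06). Within each gene no array of one group reached the range of the other. Apoe, the acceptor apolipoprotein, was 12.76, 12.79 and 12.85 after vehicle and 11.65, 10.80, 11.69 and 11.81 after αGalCer (-1.31 ± 0.19, adjusted p = 8.86e-05). Its lowest value, αGalCer replicate 2, was in the array with the lowest adipocyte markers (9.98). Within its group that array was also lowest in endothelial (8.33) and fibroblast (9.12) markers. It was highest in macrophage (11.09) and dividing-cell (9.26) markers, and the source of the low Apoe value was not tested.

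Ch25h, which encodes cholesterol 25-hydroxylase, an interferon-induced enzyme that makes a soluble oxysterol, had the largest change. Its vehicle values were 5.03, 4.87 and 6.08, low on this scale, and its αGalCer values were 10.65, 9.88, 8.47 and 9.70. The change was 4.35 ± 0.42 (95% interval 3.44 to 5.26, adjusted p = 2.88e-06), and the 4 treated arrays spread over 2.18. Npc1, the lysosomal membrane protein that releases cholesterol from endocytosed lipoprotein, was 9.80, 9.70 and 9.69 and then 10.49, 10.64, 10.39 and 10.37, a rise of 0.75 ± 0.08 (adjusted p = 1.09e-05).

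**Figure D4:**
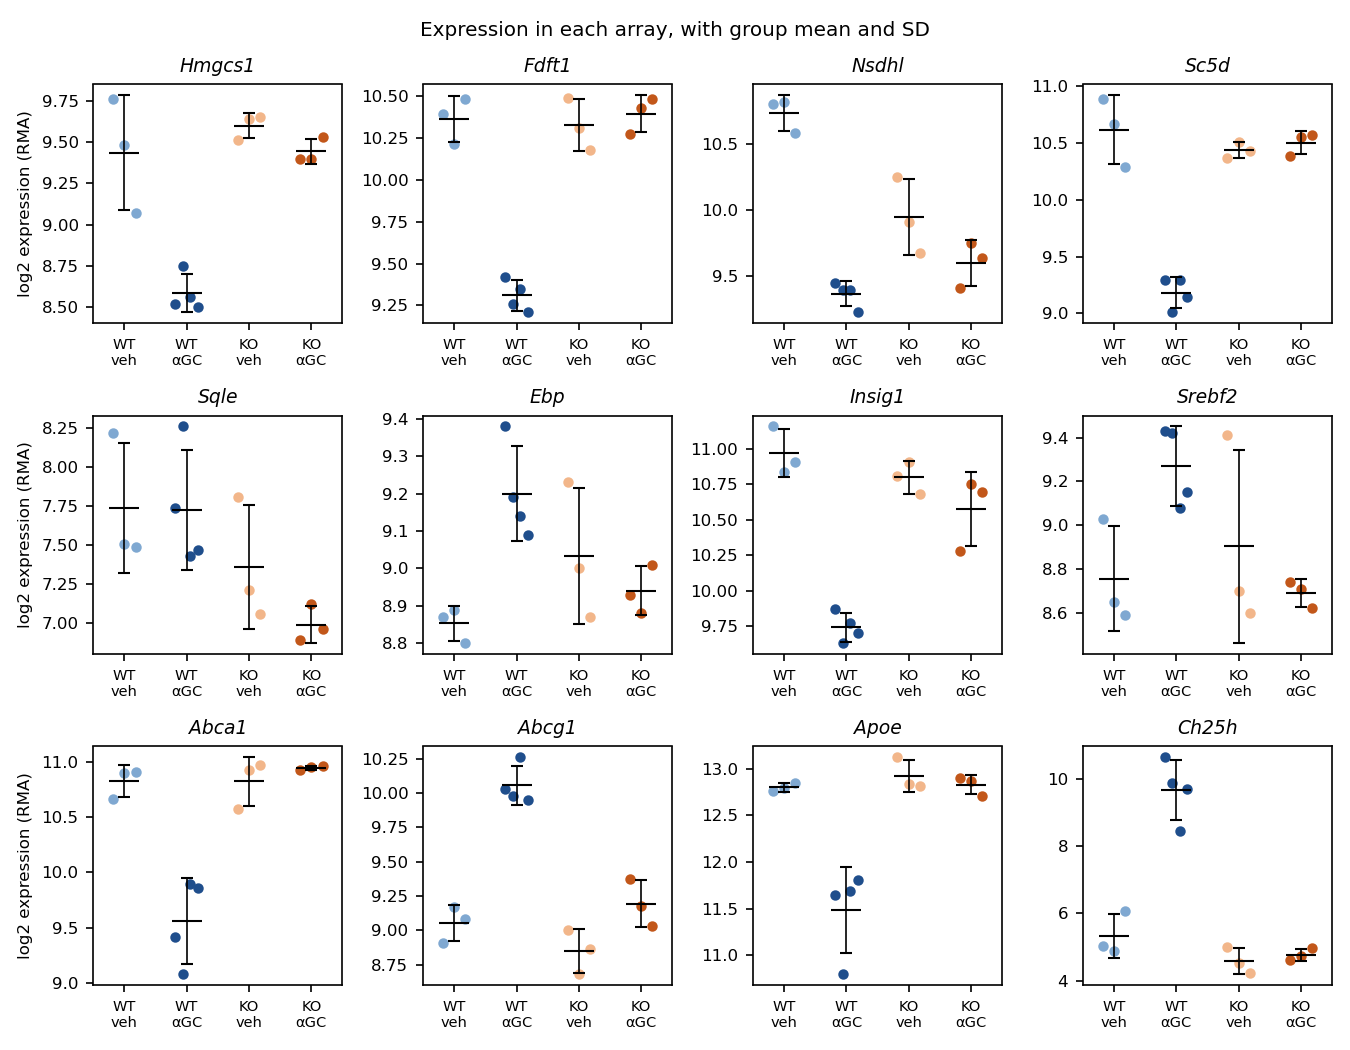
Log2 expression (RMA values) of 12 cholesterol genes in each array, by group (WT wild type, KO CD1d knockout, veh vehicle, αGC αGalCer); each point is 1 array, the horizontal line is the group mean and the bars are 1 SD, and each panel has its own axis, which does not start at 0. For Hmgcs1, Fdft1, Sc5d, Insig1, Abca1 and Apoe the 4 wild type αGalCer arrays are the lowest of all 13, for Abcg1 and Ch25h they are the highest, and for Nsdhl the knockout arrays lie between the wild type groups or overlap the lower one.

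The knockout comparison asked whether these changes occur without CD1d. In knockout fat, αGalCer changed 0 of the 27 cholesterol genes and 0 of all genes (0%) by limma at an adjusted p under 0.05, while 3 of the 27 and 1281 of all genes had an unadjusted p under 0.05. With arrays weighted by quality, limma called 1 of the 27, Abcg1, and 322 of all genes. Abcg1 was 9.0, 8.68 and 8.86 after vehicle and 9.37, 9.18 and 9.03 after αGalCer in the knockout, a change of 0.35 ± 0.12 (95% interval 0.09 to 0.61, adjusted p = 0.720 without weights). The other 2 were Cyp51, given above, and Nsdhl, with -0.34 ± 0.13 (-0.64 to -0.05).

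Intervals in the knockout set bounds on the changes there. Sc5d had 0.07 ± 0.13 (95% interval -0.22 to 0.35), Fdft1 0.07 ± 0.10 (-0.15 to 0.29) and Insig2 0.10 ± 0.08 (-0.07 to 0.27). Abca1 had 0.13 ± 0.19 (-0.28 to 0.53) and Apoe -0.10 ± 0.20 (-0.54 to 0.34). Each of these intervals ends well short of the wild type change of that gene. The knockout interval of Ch25h was wide (-0.79 to 1.16) and still ended below the interval of its wild type change. Those of Sqle (-0.92 to 0.18) and Mvd (-0.52 to 0.59) overlapped the wild type intervals of -0.53 to 0.50 and 0.22 to 1.25. Among the 17 enzymes 13 had a negative knockout change, with a median of -0.15, against a median of -0.11 for the 27 genes and 0.01 for all genes. Of all 18818 genes 8629 had a negative change. Since the enzymes varied together between arrays, their signs are not independent of each other.

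The difference of the αGalCer effects (wild type minus knockout) was itself tested. It passed for 13 of the 27 genes, 4 higher and 9 lower, against 28.2% of all genes, 13.9% higher and 14.3% lower. These were 6 of 17 enzymes (Hmgcs1, Fdft1, Lss, Nsdhl, Sc5d and Ebp), both INSIG genes and all 5 efflux and export genes. The difference was -1.5 ± 0.18 for Sc5d (adjusted p = 5.75e-05), -1.12 ± 0.14 for Fdft1 (adjusted p = 7.02e-05) and -1.02 ± 0.18 for Nsdhl (adjusted p = 0.00108). For the INSIG genes it was -1.01 ± 0.17 (Insig1, adjusted p = 0.000698) and -1.01 ± 0.11 (Insig2, adjusted p = 2.68e-05).

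Among the efflux and export genes the difference of effects ran from -1.38 ± 0.25 (Abca1, adjusted p = 0.00115) to 4.16 ± 0.62 (Ch25h, adjusted p = 0.000250). It was -1.22 ± 0.28 for Apoe (adjusted p = 0.00496), 0.65 ± 0.16 for Abcg1 (adjusted p = 0.00871) and 0.73 ± 0.12 for Npc1 (adjusted p = 0.000629). The test was less firm for 3 genes. Lss (-0.71 ± 0.23, adjusted p = 0.0360) missed the threshold when any 1 of 9 single arrays was left out (adjusted p = 0.0512 to 0.0910). Ebp (0.45 ± 0.14, adjusted p = 0.0292) missed it without wild type vehicle replicate 3 or knockout αGalCer replicate 1 or 2 (0.0588 to 0.0759). Without the 3 arrays that stood apart the count was 11, with Ebp (adjusted p = 0.116) and Abcg1 (adjusted p = 0.0716) no longer called. Over all genes it was 4444 in that setting and 5309 with every array. For Srebf2 the difference was 0.73 ± 0.26 (adjusted p = 0.0537), and the value rested on knockout vehicle replicate 1, the highest knockout array at 9.41. It was 0.48 (adjusted p = 0.0725) without that array and 0.36 (adjusted p = 0.269) without the 3 arrays that stood apart, while 8 of 26 alternative settings passed the threshold. For the genes called in wild type but not here, such as Mvk, Pmvk, Mvd and Fdps, no difference between the genotypes was shown.

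Genotype was then compared within each injection. These comparisons share their arrays with those above, so they are not independent of them. After vehicle, 0 of the 27 genes differed between knockout and wild type by limma, against 0.112% of all genes, and 4 of the 27 and 1258 of all genes had an unadjusted p under 0.05. Those 4 were enzymes and were lower in the knockout arrays. Nsdhl was 10.80, 10.82 and 10.58 in wild type and 10.25, 9.91 and 9.68 in knockout (-0.79 ± 0.13, adjusted p = 0.0570). Fdps was 8.99, 8.99 and 8.87 and then 8.48, 8.18 and 8.12 (-0.69 ± 0.12, adjusted p = 0.0570). After αGalCer Fdps was also lower in knockout (-0.46 ± 0.11, adjusted p = 0.00394). Fdps lies on chromosome 3, as the targeted Cd1d1 does, and the part of strain sequence near the target was not tested. Pmvk, on the same chromosome, had -0.12 ± 0.20 after vehicle (adjusted p = 0.948). The values of Lss and Idi1 were -0.66 ± 0.17 (adjusted p = 0.286) and -0.65 ± 0.21 (adjusted p = 0.512). Arrays did not overlap between the genotypes for 4 of the 27 genes, namely Fdps, Lss and Nsdhl, lower in knockout, and Npc1, higher, against 11.2% of all genes. Nsdhl or Fdps passed the threshold under several other settings, given with the sensitivity of the results. In all, 14 of the 17 enzymes had a lower mean in knockout after vehicle, with a median of -0.16. Of all 18818 genes 8347 were lower, with a median of 0.02. The enzymes varied together between arrays, as given below, so their signs are not independent of each other.

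After αGalCer the genotypes differed in 16 of the 27 genes, 7 higher and 9 lower in knockout, against 41.1% of all genes, 21.9% higher and 19.2% lower. The largest were Abca1 (1.38 ± 0.17), Apoe (1.34 ± 0.19) and Sc5d (1.32 ± 0.12), all higher in knockout, and Ch25h (-4.91 ± 0.42), lower. Lss (0.05 ± 0.16, adjusted p = 0.841) and Nsdhl (0.23 ± 0.13, adjusted p = 0.170) did not pass here. Their means after αGalCer were 7.64 in wild type and 7.69 in knockout for Lss, and 9.37 and 9.60 for Nsdhl. Both genes also had lower vehicle values in knockout, so the wild type fall brought them close to the knockout level. Sqle (-0.74 ± 0.24, adjusted p = 0.0239) and Dhcr7 (-0.61 ± 0.17, adjusted p = 0.00937), which did not pass in either αGalCer comparison, were lower in knockout than in wild type after αGalCer. Sqle lost this call without wild type αGalCer replicate 2 or knockout αGalCer replicate 1 or 3. After vehicle both genes already had lower means in knockout, not called (Sqle -0.38 ± 0.25, Dhcr7 -0.35 ± 0.18). Their difference of effects did not pass either (0.36 ± 0.35, adjusted p = 0.529, and 0.26 ± 0.24, adjusted p = 0.511). A genotype difference that arises with αGalCer was thus not shown for them. The count of 16 was 12 to 17 with 1 array left out, lowest without knockout αGalCer replicate 3, and 17 without the 3 arrays that stood apart. Over all genes it was 7739 with every array, 6674 to 8468 with 1 left out and 7342 without the 3.

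The enzymes also varied together between arrays of one group. In the wild type vehicle group replicate 1 was the highest array for 13 of 17 enzymes and replicate 3 the lowest for 14. In the knockout vehicle group replicate 1 was the highest for 14 and replicate 3 the lowest for 12. Over all genes, replicate 1 was the highest array for 43.6% of genes in the wild type vehicle group and 41.8% in the knockout vehicle group. The share of all genes lowest in replicate 3 was not computed. The median deviation of replicate 3 from its group mean was -0.27 (wild type) and -0.17 (knockout) for the enzymes, and 0 and 0.02 over all genes. The enzyme mean was 8.79, 8.53 and 8.38 in the wild type vehicle arrays, 8.52, 8.29 and 8.15 in the knockout vehicle arrays, 8.23, 8.22, 8.04 and 8.00 in the wild type αGalCer arrays and 8.04, 8.21 and 8.23 in the knockout αGalCer arrays. The vehicle arrays of a genotype thus differed by about as much as the group means did. The median SD of an enzyme was 0.29 and 0.24 in the wild type and knockout vehicle groups and 0.17 and 0.12 after αGalCer, where over all genes it was 0.13, 0.16, 0.13 and 0.10. The labels do not say what replicate numbers stand for, and the source of this order was not tested. Marker lists beside it moved in different ways. Macrophage means were lowest in replicate 1 of both vehicle groups, 8.65, 9.44 and 9.41 in wild type and 9.0, 9.22 and 9.21 in knockout, the reverse of the enzymes at that end. Dividing-cell means were 5.92, 6.67 and 6.64 in the wild type vehicle arrays and 6.16, 6.48 and 5.98 in the knockout ones. Ciliated and ductal epithelium ran 7.28, 6.04 and 7.36 in wild type and 8.31, 6.48 and 5.52 in knockout, the latter in the order of the enzymes. Adipocyte means were 11.93, 12.03 and 11.92 in wild type and 12.06, 12.14 and 12.07 in knockout.

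Other genes of the pathway, 28 of 37 listed, were measured. In wild type fat 7 rose and 11 fell (64.3% called, beside 41.9% of all genes), with a median of -0.02, and in knockout 0 were called. By the rule of the 3 largest changes each way, the rises were Nceh1, which hydrolyses cholesteryl ester (1.67 ± 0.20), Lipa, the lysosomal acid lipase (1.09 ± 0.18), and Stard3, a late endosomal sterol transporter (1.07 ± 0.14). The falls were Abcg4, a transporter close to Abcg1 (-1.61 ± 0.13), Mylip, the LXR-induced ligase that degrades the LDL receptor (-1.18 ± 0.13), and Apoc1, a small apolipoprotein (-1.11 ± 0.27). Their adjusted p-values ran from 7.61e-07 (Abcg4) to 0.00426 (Apoc1). Nceh1 was 8.01, 8.31 and 8.45 after vehicle and 9.55, 10.28, 10.21 and 9.68 after αGalCer, and Abcg4 was 6.91, 7.13 and 6.63 and then 5.24, 5.26, 5.49 and 5.10. Neither gene's groups overlapped. The difference between the genotypes' effects passed for 11 of the 28, 3 higher and 8 lower (28.2% of all genes, 13.9% higher and 14.3% lower). It was -2.0 ± 0.19 for Abcg4 (adjusted p = 1.60e-05) and 1.24 ± 0.30 for Nceh1 (adjusted p = 0.00671). It did not pass for Apoc1 (-0.64 ± 0.39, adjusted p = 0.274), whose knockout arrays were 10.54, 10.1 and 10.14 after vehicle and 9.88, 9.68 and 9.82 after αGalCer, also without overlap (-0.47 ± 0.28, adjusted p = 0.770).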

How the data were processed

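The authors deposited log2 expression for each probe set, with 1 column per array. RMA (background correction, quantile normalisation, summary per probe set) made these values, per the submitters' processing notes; its version, the chip description file and any build were not given in the sources used here. RMA compresses dim probe sets, so changes from a low level such as that of Ch25h are understated. Per the labels' protocols, 100 ng of RNA with an integrity number above 8.0 was labelled. Array medians ran from 5.68 to 5.83, and the number of arrays limits the precision.

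Names came from the platform annotation, with symbols updated through the RefSeq table of GRCm38.p6. Of 35556 probe sets, 21218 had 1 symbol; the probe set with the highest mean stood for a gene, which left 18818 genes. All arrays entered 1 limma model (version 3.58.1, R 4.3.3; a mean per group, 9 residual degrees of freedom, eBayes with intensity trend), tested first on simulated data. Tests were two-sided, with Benjamini-Hochberg adjustment over all genes, and ± after a change is its SE. The text names every member, Cd1d1, and of the other pathway genes the 3 largest called rises and falls. Members and lists were chosen with earlier results of these data known. Alternatives covered the variance model, normalisation, probe sets, thresholds, a replicate block and each array left out; leaving out 3 arrays together was added after the data were seen. Of 12 same-numbered pairs of arrays, 3 deviated together at a correlation over 0.1, short of the rule that all must, so no pairing was used. These were replicates 1 and 2 between the vehicle groups of the 2 genotypes (0.48 each) and replicate 1 between the wild type groups (0.30). Replicate 3 of the vehicle groups had -0.11.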

Additional observations from a re-analysis of the deposited data

Results flagged for a closer look

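The αGalCer effect differed between wild type and CD1d knockout fat for 13 of 27 cholesterol genes by limma's test of that difference (wild type minus knockout, log2). The same test passed for 28.2% of all genes, 13.9% higher and 14.3% lower. The difference was lower for Sc5d (-1.5), Abca1 (-1.38), Apoe (-1.22), Fdft1 (-1.12), Nsdhl (-1.02), Insig1 (-1.01), Insig2 (-1.01), Lss (-0.71) and Hmgcs1 (-0.70). It was higher for Ch25h (4.16), Npc1 (0.73), Abcg1 (0.65) and Ebp (0.45).

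A single wild type αGalCer array lay far from the other 3 for 2 of the 27 genes checked. For Apoe the gap of replicate 2 to the next array was 0.841 of the group's range, and for Scap that of replicate 1 was 0.856, both above Dixon's 95% critical value for 4 samples. Chance flags about 1 in 20 groups.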

How the results depend on the processing

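The 26 alternative settings, 13 of which left out 1 array each, turned the sign of no cholesterol gene called in wild type or for the difference of effects. For the comparisons between genotypes and for other genes, signs were not compared. Of the 27 cholesterol genes, the number called in wild type was 13 at an adjusted p under 0.01 and stayed within 16 to 21 with 1 array left out. Over all genes it was 5994 at that threshold and 6753 to 8766 with 1 array left out. With a 1.5-fold change also required, 14 of the 27 and 5019 of all genes were called. In knockout, array weights gave 1 cholesterol gene and 322 of all genes, and leaving out 1 array gave 0 to 2 of all genes, with 2 without knockout vehicle replicate 3. For knockout minus wild type after vehicle, array weights called 3 cholesterol genes (Fdps, Lss and Nsdhl), quantile normalisation of the genes tested 2, testing only genes above the median level 2 (Fdps and Nsdhl), centring on the median 1 (Nsdhl) and leaving out the 3 arrays that stood apart 1 (Nsdhl). Leaving out 1 array gave 0 to 2 (Fdps without wild type αGalCer replicate 2 or 4, Fdps and Nsdhl without knockout vehicle replicate 1). Over all genes that comparison had 169 calls with array weights, 4 with its own 2 groups alone, 9 at an adjusted p under 0.01, 12 without the 3 arrays and 11 to 35 with 1 array left out (11 without wild type vehicle replicate 3, 35 without wild type αGalCer replicate 2). After αGalCer, 4888 genes passed with a 1.5-fold change also required. The causes were not tested. With the replicate number as a block, 19 cholesterol genes were called in wild type (Tm7sf2 and Hsd17b7 lost, at adjusted p = 0.0601 and 0.0751, and Stard4 gained) and 14 for the difference of effects (Srebf2 gained). Over all genes the block gave 7766 and 5461. Same-numbered arrays correlated from -0.11 to 0.48 in their deviations, and 3 of 12 pairs exceeded 0.1, so the numbers were not taken as pairing. Dim genes such as Ch25h, Mvd and Stard4 lie below the median level and were not tested there.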
